A study of Xenopus laevis with 6 samples.

Results

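Clustered common β-catenin regions are stretches of the Xenopus laevis genome at which tagged β-catenin was called in every ChIP library and which lay within 50 kb of another such stretch. Of 717 common regions on the 18 chromosomes, 259 (36.1%, 95% Wilson interval 32.7 to 39.7) met this rule and fell into 100 groups, and the other 458 were isolated. Each member makes its nearest neighbour a member too, so regions were not independent and the interval is too narrow. Among the common regions, members were chosen by position, and scores were not used. A region and its neighbour had to be called in every list to be common, so membership need not be independent of score. The intervals common to all lists were merged wherever they shared at least 1 bp, and a region was kept when the edge-to-edge gap to its nearest neighbour on the same chromosome was 50000 bp or less. The number and spacing of members are therefore a description, and no test was made on them. A further 51 common regions on unplaced scaffolds were not eligible. The last region kept was 49795 bp from its neighbour, and the first left out was 50597 bp away.

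A group is an unbroken chain of members, each within 50 kb of the next. A gap is the sequence between consecutive members of a group. A percentile is the place of a peak's score among all peaks of its own list, so that a percentile of 99 marks a peak scoring above nearly all others of that list.

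The 3 ChIP libraries and the 3 input libraries were made from whole embryos at stage 11.5. Every embryo received 500 pg of triple FLAG-tagged β-catenin injected animally into the 2 blastomeres of the 2-cell embryo, at a level said to leave the phenotype unaltered, so the tagged protein is shared by all 6 samples. Pooled embryos gave each sample, none of these libraries came from embryos without the tag, and each input was used solely inside the deposited peak calls. The regions are thus peak calls from overexpressed protein in mixed embryonic tissue, read depth is unknown, and the labels leave unsaid whether each replicate was its own clutch. The spread over replicates may therefore be technical only.

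β-catenin is the nuclear effector of canonical Wnt signalling and reaches DNA through partner proteins, chiefly the TCF/LEF factors. In the frog embryo it first specifies the dorsal side and later, during gastrulation, takes part in patterning the mesoderm and the posterior axis. Genes under such developmental control often have several enhancers spread over the sequence around them, and several bound elements close together are a known feature of such loci. Xenopus laevis is allotetraploid, and its chromosomes form pairs of a longer (L) and a shorter (S) homoeologue that carry corresponding genes in largely the same order.

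Most groups were small. There were 68 groups of 2 regions, 15 of 3, 12 of 4, 3 of 5, 1 of 6 and 1 of 9, so the 17 groups of 4 or more held 78 of the 259 members. Spans ran from 1107 to 68866 bp with a median of 23596 bp, and 15 groups were longer than 50 kb. Together the groups covered 2.71 Mb, or 0.108% of the summed chromosome extents. Median span was 16496 bp for groups of 2 regions, 39735 bp for groups of 3 and 51990 bp for groups of 4.

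The 159 gaps had a median of 13048 bp, with quartiles of 4735 and 24547 bp and extremes of 107 and 49795 bp. In 13 gaps the members were at most 1 kb apart, in 28 they were 1 to 5 kb apart, in 23 from 5 to 10 kb, in 40 from 10 to 20 kb and in 55 from 20 to 50 kb. The median gap was 15443 bp in groups of 2, 16341 bp in groups of 3, 11638 bp in groups of 4 and 10456 bp in groups of 5. It was 4614 bp in the only group of 6 and 3630 bp in the only group of 9. Group size and gap come from the same positions and the same limit, so they need not be independent. Their relation was not tested. No neighbours in a group rested on the same top-scoring peak in any of the 6 lists. The limit of 50 kb did not fall at a natural break: 10 members had their nearest neighbour at 45 to 50 kb and 18 isolated regions at 50 to 55 kb. Distances thinned beyond 100 kb, with 61 isolated regions at 50 to 100 kb and 20 at 100 to 200 kb. Of the isolated regions, 261 had no other region within 1 Mb.

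**Figure D1:**
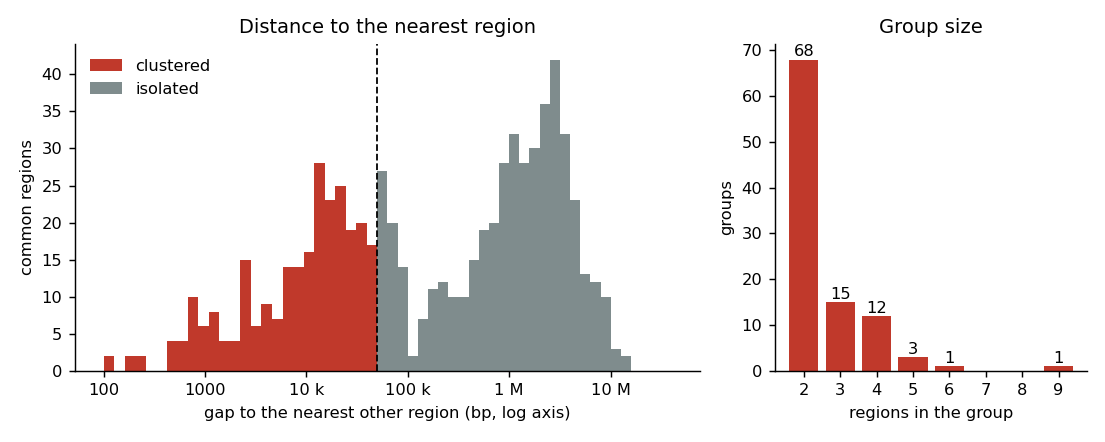
Gap from each of the 717 common regions to its nearest neighbour on a log axis (left; clustered and isolated regions on either side of the dashed 50 kb limit), and the number of groups by size (right). Distances fall on 2 humps with few regions just above 100 kb, the limit cuts the left hump, and 68 of the 100 groups hold 2 regions.

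The number of members rested on replicate 3. When the common list was rebuilt without it, 1174 of 2439 regions (48.1%) were clustered in 434 groups, against 388 of 1004 without replicate 1 and 292 of 774 without replicate 2. The share moved less than the number in all of these lists.

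The largest group lay on chromosome 7L at 21797753 to 21865873, with 9 regions in 68121 bp. Coordinates are taken as deposited. Their genome build is not stated in the sources used here, so neither genes nor sequences were assigned. Its members started 0, 24583, 31117, 32705, 56372, 57764, 63280, 66024 and 67621 bp from the left edge, so that 5 of them lay at its right end. Its best member by mean MACS percentile, at 21863777 to 21864276, had MACS scores of 488, 1284 and 501 and HOMER scores of 56, 82 and 28 in replicates 1, 2 and 3. The member at 21822336 to 21822835 scored 731, 1822 and 294 with MACS and 75, 135 and 35 with HOMER. That member scored above the best member in every list except MACS of replicate 3. Mean MACS percentiles follow replicate 3 most, where percentiles spread most widely. Clustered regions had MACS interquartile ranges of 89.0 to 98.4, 96.2 to 99.4 and 63.5 to 94.0 in replicates 1, 2 and 3. Ranks, ranges within groups and counts from a percentile of 90 that use this mean share that weighting. The member with the lowest mean MACS percentile, at 21854125 to 21854717, scored 202, 589 and 54.9 with MACS, a percentile of 17.4 in replicate 3, while its neighbour 799 bp away scored 298, 606 and 187. In the other 5 lists the first member was lower, with 187 and 523 for MACS in replicates 1 and 2 and 31, 49 and 14 for HOMER, against 47, 71 and 17 for the member at 21854125. All scores are the authors' own and are comparable only within a list. With a joining limit of 25 kb this group still held its 9 regions.

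The group of 6 lay on chromosome 3L at 136452410 to 136500110, in 2 parts: 4 members starting within 12592 bp of the left edge and a pair beyond a gap of 31528 bp. The member at 136459888 had the highest MACS score of the group in replicate 3, at 312, with 220 and 874 in replicates 1 and 2. The member at 136497092, in the distant pair, was the lowest of the group in each MACS list, at 54.2, 108 and 66.0. Its replicate 1 percentile was 13.3, against 82.7 to 91.7 for the other members. A limit of 25 kb left 4 of these 6 regions together.

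The 3 groups of 5 were on chromosomes 7L at 112281952 to 112334231, 9_10L at 43181238 to 43242718 and 9_10S at 62124298 to 62188151. In the 7L group every member stood at a mean MACS percentile of 96.0 or more, from 96.0 to 98.7. The spacing in the 9_10S group was uneven, with a pair of regions 202 bp apart and a gap of 46382 bp before its last member. Its second member, at 62128426, scored 699, 989 and 378 with MACS and 73, 127 and 44 with HOMER. Its last, at 62187652, scored 389, 1287 and 487 with MACS.

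**Figure D2:**
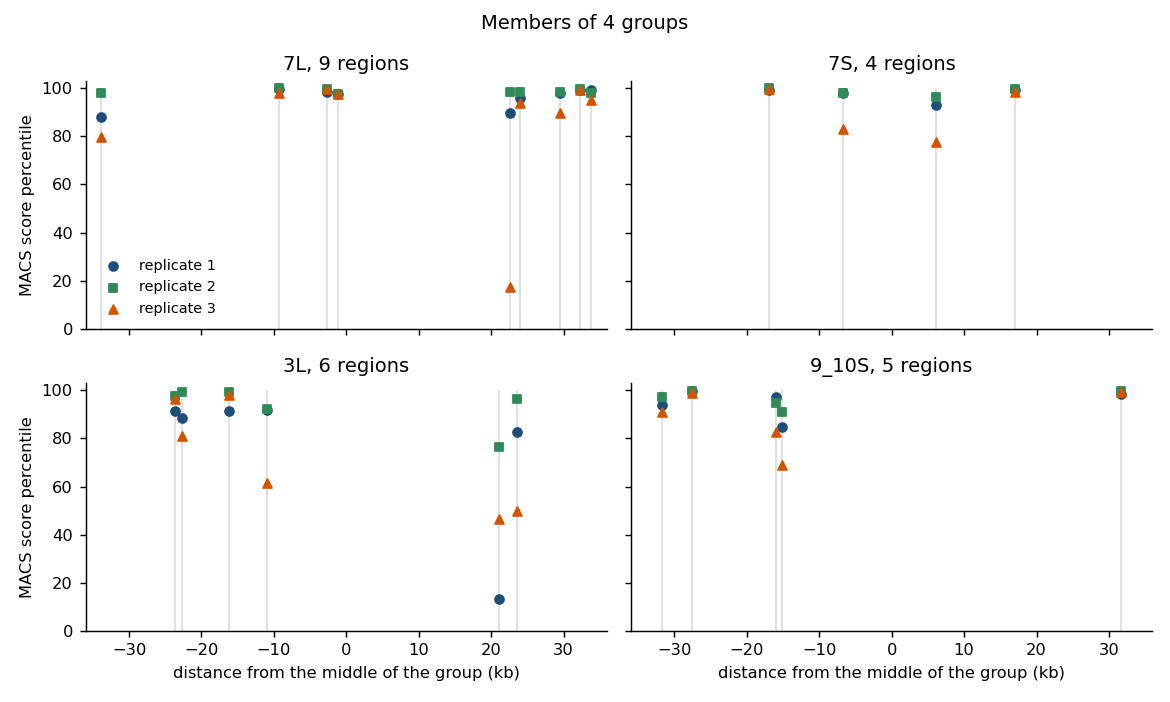
Members of the groups on 7L (9 regions), 7S (4), 3L (6) and 9_10S (5), placed by distance in kb from the middle of the group (x axis) against the MACS score percentile in each replicate (y axis; 1 symbol per replicate, grey lines mark members). Members on 7S all lie above 75 in every replicate, whereas single members on 7L and 3L fall below 20 in 1 replicate.

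The other 12 groups, of 4 regions each, were on chromosomes 1S at 16674327, 2L at 142681911 and 158785339, 3L at 103252026 and 110833343, 3S at 33478947 and 83060958, 6L at 3843046, 7S at 16905412 and 83266793, 8S at 75795959 and 9_10L at 65106479. The 3S group at 83060958 to 83129823 had the longest span of all, 68866 bp. Of the 17 large groups 3 were on 3L and 2 each on 2L, 3S, 7L, 7S and 9_10L, and none was on 1L, 2S, 4L, 4S, 5L, 5S, 6S or 8L. The 3L group at 103252026 had mean MACS percentiles of 69.7 to 83.0 over its members, all below the 86.4 to 99.2 of the 3L group at 110833343.

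The group whose best member ranked highest was a pair on chromosome 8L. Its regions, at 24899856 to 24900355 and 24925951 to 24926450, had MACS scores of 562, 2597 and 748 for the left region and 579, 3106 and 719 for the right one, over replicates 1, 2 and 3. The members were close to each other in every MACS list, and neither led throughout. HOMER scored them 30, 60 and 18 (left) and 41, 79 and 19 (right), at percentiles of 79.3 to 97.8, so the callers placed this pair differently. Next came the 4 regions on 3S at 33478947 to 33541932, where MACS gave the member at 33479929 scores of 892, 1580 and 437 and the member at 33506382 scores of 754, 1553 and 273. The member at 33478947, only 482 bp from the first of them, scored 139, 661 and 69.3.

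Rank 3 went to the 7S group at 16905412 to 16939860, led from both ends. Its first member scored 535, 1675 and 533 and its last 534, 1447 and 334 with MACS, against 385, 518 and 114 and then 239, 382 and 98.5 for the 2 in between. The 9 regions on 7L had rank 4. Ranks 5 to 10 were held by 5S at 62102423, 9_10S at 62124298, 5L at 123013761, 2S at 138330689, 5S at 105945084 and 8S at 26819443. In 5 of these 6 the groups had 2 or 3 regions, so a high-scoring member was not limited to large groups. Ranks 2, 3 and 4, however, went to groups of 4, 4 and 9 regions. The rank takes the best of all members, which favours larger groups by construction. At the other end, the pair on 9_10L at 71230683 to 71231789 had the shortest span, 1107 bp, and the shortest gap, 107 bp. It also had the lowest best member, with MACS scores of 95.9, 99.1 and 80.3 in replicates 1, 2 and 3. The longest gap, 49795 bp, was in the pair on 3L at 131368521 to 131419389, whose left region scored 214, 183 and 71.0 with MACS and whose right region scored 83.3, 114 and 61.0.

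Clustered regions scored higher than isolated ones in each of the 6 lists. Median MACS scores were 265, 551 and 117 for clustered regions in replicates 1, 2 and 3, against 217, 419 and 90.3 for isolated regions. Median HOMER scores were 44, 65 and 20 for clustered regions, against 40, 57 and 18 for isolated regions. On the percentile scale the MACS medians were 94.5, 98.2 and 84.3 for clustered regions, against 91.4, 96.9 and 73.6 for isolated regions. The HOMER medians were 93.0, 95.5 and 90.5 for clustered regions and 90.9, 93.3 and 86.9 for isolated regions. The distributions overlapped widely: in the replicate 3 MACS list the interquartile range of the clustered regions ran from 63.5 to 94.0 and that of the isolated regions from 44.7 to 90.1.

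Clustered minus isolated, the median percentile differed by 5.02 ± 4.99 points for MACS and 2.63 ± 0.81 points for HOMER (SD, n = 3 replicates), and was positive in 3 of 3 replicates for each caller. An exact 2-sided sign-flip permutation test over 3 replicates gave p = 0.25 for both, the smallest it can give, so this design cannot reach a threshold of 0.05. A neighbour counted solely when it was called in these same lists. Clustering and score need not be independent, and the test cannot separate them. The MACS mean rested on replicate 3, without which it was 2.19 points. With 1 value per group, taken from its median member, the differences were 3.07 points for MACS and 0.37 for HOMER, and the HOMER difference was no longer positive in every replicate. With the best member of each group they were 9.47 and 5.91 points, a choice that raises the value by construction.

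**Figure D3:**
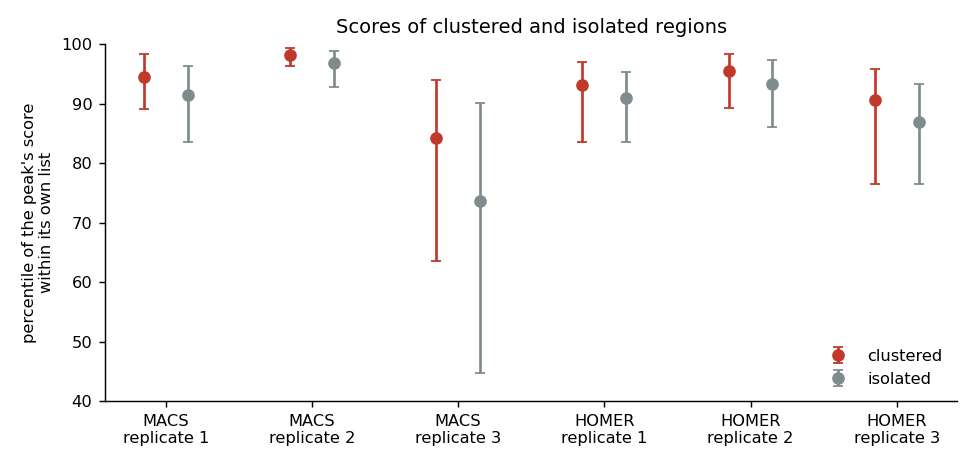
Median percentile of the peak score (points, y axis; bars span the first to the third quartile of regions) for 259 clustered and 458 isolated regions in each of the 6 lists. The clustered median is higher in every list, by 10.7 points in the replicate 3 MACS list and by 1.28 to 3.57 points in the others.

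The score difference was uneven over group sizes. Members of groups of 4 or more had median HOMER scores of 50, 71 and 21.5 in replicates 1, 2 and 3 and median MACS scores of 340, 596 and 145. Members of pairs had HOMER medians of 39.5, 60.5 and 18.5, close to the 40, 57 and 18 of isolated regions, and MACS medians of 238, 515 and 110. By distance to the nearest neighbour, the median percentile was highest within 5 kb in every list. It was also higher at 5 to 20 kb than beyond 50 kb in every list. From the class of 5 to 20 kb to that of 20 to 50 kb it did not fall in every list. These distance classes were not tested. For regions within 5 kb, at 5 to 20 kb, at 20 to 50 kb and beyond, the median MACS percentile of replicate 1 was 96.0, 95.5, 91.9 and 91.4. Replicate 2 gave 98.4, 98.1, 97.6 and 96.9, and replicate 3 gave 85.1, 84.1, 84.1 and 73.6. The HOMER medians were 94.8, 93.0, 89.4 and 90.9 for replicate 1, then 96.4, 95.3, 94.4 and 93.3 for replicate 2, then 90.5, 88.9, 88.9 and 86.9 for replicate 3. In the replicate 1 HOMER list, members 20 to 50 kb apart thus stood below the isolated regions. Among the 72 highest-scoring common regions of a list, 41 (56.9%), 41 (56.9%) and 38 (52.8%) were clustered by MACS in replicates 1, 2 and 3, against 36.1% of all common regions. For HOMER, where ties widened the set to 73, 74 and 84 regions, 41 (56.2%), 41 (55.4%) and 39 (46.4%) were clustered. Size classes were read after the scores were known, and no test was made between them.

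Neighbours in a group were closer in score than regions far apart, though wide ranges occurred. The median absolute difference between consecutive members was 5.26, 1.84 and 15.4 percentile points for MACS in replicates 1, 2 and 3, against 9.14, 3.19 and 22.8 points between consecutive regions over 50 kb apart. For HOMER it was 6.19, 4.76 and 8.55 points within groups, against 8.39, 6.66 and 10.9 points over 50 kb. It was smaller within groups in all 6 lists, where clustered regions also stood nearer the top of the scale. This difference was not tested. The range of mean MACS percentiles within a group had a median of 11.9 points and ran from 0.0081 to 62.8. In 25 of the 100 groups all members had a mean MACS percentile of at least 90, in 54 some did and in 21 none did. For HOMER the numbers were 28, 45 and 27. Taken singly, 56.0% of clustered regions reached 90 with MACS and 54.8% with HOMER, against 34.7% and 46.1% of isolated regions. Whether members of a group reach 90 together more often than these shares give was not tested. Between consecutive members Spearman's rho of MACS percentiles was 0.20, 0.17 and 0.11 in replicates 1, 2 and 3, against -0.0060, 0.05 and 0.12 between consecutive regions over 50 kb apart. For HOMER it was 0.27, 0.14 and 0.10 within groups and 0.02, 0.05 and 0.11 over 50 kb. These correlations are over 159 and 540 pairs of sites, which share members and libraries, and are a weak description only.

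Which of a pair of neighbours scored higher was the same in all 3 MACS lists for 94 of the 159 neighbouring members (59.1%, 95% Wilson interval 51.4 to 66.5). The same count for all 699 pairs of consecutive regions, near or far, was 361 (51.6%), and for the 540 pairs over 50 kb apart it was 267 (49.4%, 45.2 to 53.7). With HOMER scores it was 95 of 159 (59.7%, 52.0 to 67.1), against 53.8% over all pairs and 52.0% (47.8 to 56.2) over 50 kb. The intervals of near and far pairs overlapped for both callers, and the difference was not tested. With MACS, near and far pairs lay closer together without replicate 1 (73.0% and 68.1%) or replicate 3 (74.2% and 70.2%). With HOMER they did so too, at 71.1% and 66.1% without replicate 1 and at 76.1% and 71.7% without replicate 3. Without replicate 2 near and far pairs lay farther apart, at 71.1% and 60.4% with MACS and 71.7% and 62.0% with HOMER. Both callers and all replicates named the same leader in 62 of the 159 neighbours (39.0%, 31.8 to 46.7), against 174 of the 540 pairs over 50 kb apart (32.2%, 28.4 to 36.3). In 74 of the 100 groups the best member by MACS was also the best by HOMER. Of the 100 groups 68 were pairs, where unrelated choices often coincide, and both callers used the same libraries. No share for unrelated choices was computed. In the 32 groups of 3 or more the best member was an inner one in 18 (56.2%), where inner positions made up 59 of 123 members (48.0%).

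Replicates ranked the clustered regions in a more similar way than the isolated ones. For MACS scores, replicates 1 and 2 had a Spearman's rho of 0.65, replicates 1 and 3 one of 0.53 and replicates 2 and 3 one of 0.61 over the 259 clustered regions, against 0.54, 0.29 and 0.49 over the 458 isolated regions. For HOMER it was 0.71, 0.63 and 0.72 for clustered and 0.61, 0.51 and 0.60 for isolated regions. All 6 values were higher for clustered regions. Sites are not independent replicates, and the difference was not tested. Isolated regions also had lower median scores in every list, and no comparison was made at equal score.

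Further peaks, outside the common regions, were also denser between members of a group. The 2.58 Mb of gaps held 61.7, 71.8 and 35.7 MACS peaks per Mb in replicates 1, 2 and 3, against 3.42, 9.39 and 14.1 per Mb outside groups. HOMER gave 36.9, 36.1 and 30.3 per Mb in gaps, against 3.03, 3.50 and 1.25 outside. The mean log2 ratio of density in gaps over density outside groups was 2.82 ± 1.42 for MACS (SD, n = 3). For HOMER it was 3.86 ± 0.66. Both were positive in 3 of 3 replicates (exact sign-flip permutation p = 0.25 for both, the smallest possible). Gaps are bounded on both sides by regions called in these same lists. A positive ratio was therefore expected beforehand, and the test lends it no weight. Sequence near any common region was itself richer in peaks: within 25 kb of isolated regions MACS gave 24.2, 34.2 and 20 peaks per Mb and HOMER 20, 22.2 and 11.4. Against these flanks, a comparison added after the data were examined, the ratio shrank to 1.08 ± 0.26 for MACS and 1.00 ± 0.37 for HOMER. These flanks are not a matched control. They reach 25 kb from 1 region, whereas gaps lie between 2 regions and had a median of 13048 bp. Densities in 1 list cannot be set against those in another, since list lengths differ, and mappability was not measured.

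**Figure D4:**
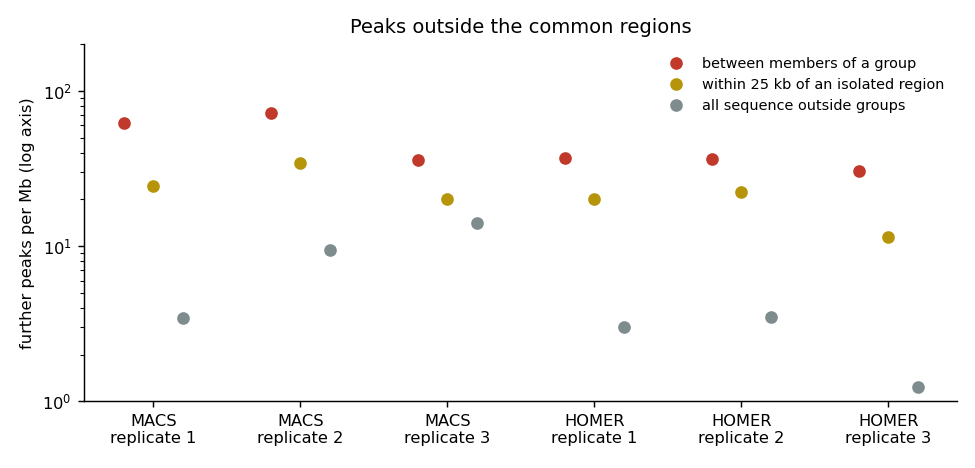
Peaks per Mb (log axis) that overlap no common region, by list, between members of a group, within 25 kb of an isolated region and in all sequence outside groups. Gaps hold the most in every list, with the smallest excess over all sequence outside groups in the replicate 3 MACS list (35.7 against 14.1 per Mb).

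Not every gap held a further peak. Many gaps were short, with 13 of at most 1 kb and 28 of 1 to 5 kb. No comparison was made with other sequence of equal length. MACS peaks outside the common regions were present in 87, 85 and 61 of the 159 gaps in replicates 1, 2 and 3, and HOMER peaks in 67, 61 and 59. Stretches that both callers found in 2 replicates, outside any common region, lay in 35 gaps (22.0%) when replicate 3 was left out, in 12 (7.55%) without replicate 1 and in 8 (5.03%) without replicate 2. These shares follow the number of stretches available, 2596, 1143 and 845 in all in the same order.

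Groups were found on all 18 chromosomes. The L chromosomes held 142 clustered of 407 common regions (34.9%, 95% Wilson interval 30.4 to 39.6) in 53 groups, and the S chromosomes 117 of 310 (37.7%, 32.5 to 43.3) in 47 groups. Intervals overlapped, and no test was made. These intervals and those by chromosome treat regions as independent, which members of a group are not. The largest group on L had 9 members and the largest on S had 5. Median span was 24449 bp on L and 22344 bp on S, and median gap 12997 and 13253 bp, so spacing was close in both subgenomes. Chromosome 3L had the highest clustered share, 25 of 43 regions (58.1%, 43.3 to 71.6), and 4L the lowest, 4 of 30 (13.3%, 5.31 to 29.7). Chromosome 1L had the most common regions, 69, of which only 12 (17.4%, 10.2 to 28.0) were clustered, against 16 of 47 on 1S (34.0%, 22.2 to 48.3). By length 9_10L had the most groups, 7.63 per 100 Mb, and 4L the fewest, 1.39.

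Whether L groups had a counterpart on S was read from relative position, the middle of a group as a percentage of the chromosome extent. Of the 53 L groups, 19 (35.8%, 95% Wilson interval 24.3 to 49.3) had an S group within 2 percentage points on the partner chromosome. The same held for 121 of all 407 common L regions (29.7%) and for 66 of the 265 isolated L regions (24.9%, 20.1 to 30.4). The windows of 2 points around S groups covered 19.8% of the S extents. In the other direction, 18 of 47 S groups (38.3%, 25.8 to 52.6) had an L group within 2 points, against 31.6% of all S regions and 25.4% of isolated S regions, with 20.7% of the L extents covered. The interval for L groups included the value for isolated L regions, no chance test was made, and relative position is a coarse measure that insertions, deletions and inversions shift.

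The excess depended on the window. At 1 point, 6 of 53 L groups (11.3%) were matched, with 10.4% of the S extent covered and 13.2% of isolated L regions matched. At 5 points it was 31 (58.5%), with 42.3% covered and 47.2% of isolated regions matched. When S positions were counted from the other end of the chromosome, 8 L groups (15.1%) were matched, with the same 19.8% covered. By chromosome the groups are few, and the share of the S partner within 2 points of a group differed. Matched L groups were 3 of 5 on 1L (27.5% of the partner covered), 3 of 6 on 2L (22.1%), 1 of 8 on 3L (22.5%), 0 of 2 on 4L (12%) and 1 of 5 on 5L (12.6%). They were 3 of 3 on 6L (23.9%), 4 of 8 on 7L (20%), 0 of 7 on 8L (16.7%) and 4 of 9 on 9_10L (16.4%). By size, 11 of 36 L groups of 2 regions, 4 of 7 groups of 3 and 4 of 10 groups of 4 or more were matched.

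**Figure D5:**
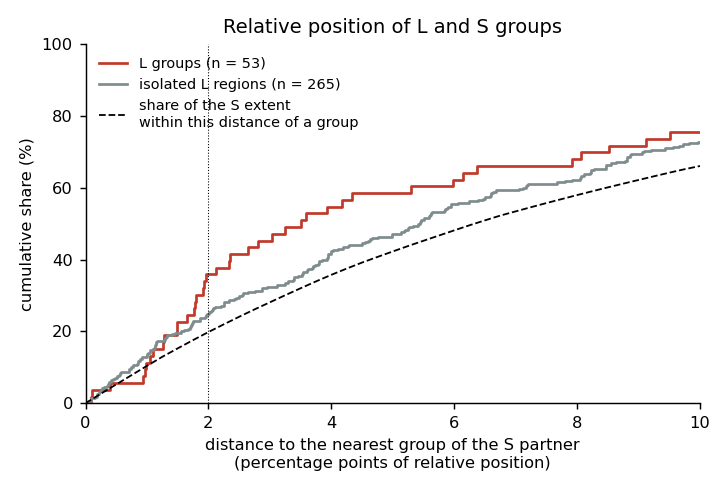
Cumulative share (%) of the 53 L groups and of the 265 isolated L regions by distance to the nearest group of the S partner, in percentage points of relative position. The dashed line is the share of the S extent within that distance of a group; at the dotted 2 points the values are 35.8%, 24.9% and 19.8%, whereas at 1 point the L groups (11.3%) do not stand above the isolated regions (13.2%).

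The closest matches by relative position were a pair of regions on 7L at 82554009 to 82569367 and a pair on 7S at 58293161 to 58296092, 0.087 points apart. Their members were 14359 bp apart on 7L and 1932 bp apart on 7S. The 4 regions on 6L at 3843046 to 3887193 and the 2 on 6S at 3321010 to 3356677 were 0.11 points apart. Then came 5L at 123013761 to 123056323 and 5S at 105945084 to 105975552, 0.39 points apart and both among the 10 groups with the best member. The last member led each of these 2 groups, with MACS scores of 446, 1972 and 455 and HOMER scores of 66, 138 and 41 on 5L, and MACS scores of 631, 2654 and 316 and HOMER scores of 81, 182 and 34 on 5S. These last members started 42063 bp from the left edge of the group on 5L and 29969 bp on 5S. Matches 4 and 5 were 1L at 18328982 with 1S at 16674327, 0.93 points apart, and 7L at 119015552 with 7S at 83266793, 0.96 points apart. By mean MACS percentile, the best member held the same end of both groups in the first 3 matches, but not in matches 4 and 5. In match 2, on 6L and 6S, the shared end rested on replicate 3. With MACS in replicates 1 and 2 an inner member led on 6L, at 675 and 1571, against 331 and 1000 for the last. On 6S the first member led in these replicates, at 542 and 1144, against 513 and 803 for the last. In groups of 2 regions a shared end is easily met, and this was not tested.

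Of the 19 matches, 18 were mutual nearest groups. Sizes were equal in 7 of the 18, larger on L in 6 and larger on S in 5, and the span was longer on L in 11. Spearman's rho over these 18 pairs was 0.15 for span and 0.27 for the mean MACS percentile of the best member, so both relations were weak. The large groups on 7L at 21797753 and 7S at 16905412, with 9 and 4 regions, were 1.66 points apart. The best-ranked groups on 8L at 24899856 and 8S at 26819443 were each other's nearest but 6.37 points apart, outside the window.

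One chromosome pair, chosen after its values were seen, had 3 matches displaced by nearly the same amount. On 2L the groups at 142681911, 149323837 and 158785339 lay 1.28, 1.27 and 1.10 points farther along than the groups on 2S at 123837149, 129725899 and 138330689. Steps between them were 6.64 and 9.46 Mb on 2L and 5.89 and 8.60 Mb on 2S, ratios of S to L of 0.887 and 0.909, where the ratio of the chromosome extents was 0.882. Even displacements give ratios near that of the extents by construction, so the ratios restate the displacements and are no separate observation. The other 4 chromosome pairs with 3 or 4 mutual matches had less even displacements. L minus S, these ran from -1.05 to 1.97 points in pair 1 and -1.48 to 1.91 in pair 6. They ran from -1.78 to 0.96 in pair 7 and -1.92 to 0.99 in pair 9_10. Step ratios in these 4 pairs ran from 0.610 to 2.90. Single steps there could still lie near the ratio of extents: in pair 1, with a ratio of 0.819, the steps gave 1.30 and 0.821. The second was a step of 119 Mb on 1L. Over so long a step, matches within 2 points stay near that ratio by construction. Of the 3 matches on 2L and 2S, the second, at 149323837 on 2L, had a gap of 24268 bp on 2L and 2713 bp on 2S. The third, at 158785339 on 2L, had 4 regions on 2L and 2 on 2S. Only the first, at 142681911 on 2L, had a similar internal layout. On 2L the members of this first match started 0, 15606, 21913 and 23269 bp from the left edge, and on 2S 0, 15102 and 16401 bp. Each ended in a close pair, with a gap of 856 bp on 2L and 799 bp on 2S, of which the first member scored higher in all 6 lists. On 2L that pair had MACS scores of 550, 1034 and 279 and then 273, 431 and 97.4. On 2S it had 574, 914 and 182 and then 358, 534 and 88.5. HOMER gave 82, 118 and 37 and then 50, 65 and 20 on 2L, and 72, 117 and 24 and then 54, 79 and 18 on 2S. Whether these stretches are homoeologous sequence was not tested, since no genome of the lists' build was used here.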

How the data were processed

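Peak positions and scores were taken from 3 MACS lists, 3 HOMER lists and 1 common list, in which the value beside each peak is a score that the authors' caller deposited without naming its scale. The submitters' processing notes name Bowtie2, SAMtools, bedtools, HOMER and MACS; their versions and roles, and the genome build, are not stated there. Each list joined 1 ChIP library to 1 input, per the names of the deposited files, and no read totals are given. The score of a region in a list is that of the best overlapping peak (at least 1 bp). Intersecting the 6 lists gave 855 stretches, as many as the 855 deposited common intervals. Chromosome extent was the farthest peak end in any list. A gene table of another assembly was not applied.

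Groups named are those of 4 or more regions, the 10 with the best member by mean MACS percentile, the 5 closest L and S matches and those with the extreme span or gap; others are marked in the text. The members, lists and named comparisons were chosen with earlier results of these data known. Alternatives were other joining limits, merging rules, score choices, tolerances and left-out replicates. Wilson intervals cover counting error only, and neighbouring regions are not independent. Functions were tested on simulated data with planted groups. Computation used scipy 1.17.1, pandas 2.3.3, numpy 2.4.6 and matplotlib 3.10.9 under Python 3.11.15.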

Additional observations from a re-analysis of the deposited data

Results flagged for a closer look

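On the unplaced scaffolds, which the rule left out, 6 of the 51 common regions lay within 50 kb of another on the same scaffold. They are listed here because no comparison above used them; the number is a description with no test. They formed neighbours on 3 scaffolds, and whether these scaffolds belong beside one of the chromosomal groups was not tested.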

How the results depend on the processing

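Numbers of members and groups moved with the joining limit and the lists required. With a limit of 10 kb 115 regions were clustered in 51 groups. The better 50% of regions by common score left 129 in 51 groups, by construction from fewer regions, at a share of 35.9%. The 3 MACS lists alone gave 549 in 200 groups and the 3 HOMER lists alone 725 in 288. Leaving out 1 replicate gave 292 to 1174 members and 111 to 434 groups, the highest without replicate 3. The other 4 settings, limits of 25 and 100 kb included, gave 203 to 320 members in 83 to 124 groups.

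The share of L groups with an S group nearby was 11.3% at 1 point, 58.5% at 5 points and 15.1% with S reversed. For isolated L regions it was 13.2%, 47.2% and 17.7%. Without replicate 1 it was 36.5% for L groups and 32.3% for isolated regions, and without replicate 2 33.3% and 24.6%. Without replicate 3 it was 58.7% and 55.2%, where windows covered 53.0% of the S extents. Each of these 3 differences was smaller than with all replicates, 35.8% against 24.9%. Other settings gave 28.3% to 47.7% for L groups and 21.7% to 26.5% for isolated regions. Agreement on the higher-scoring neighbour was 71.1% to 74.2% for MACS and 71.1% to 76.1% for HOMER with 1 replicate left out, since fewer lists had to agree. For pairs over 50 kb apart it was then 60.4% to 70.2% for MACS and 62.0% to 71.7% for HOMER.

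All 16 recomputed score differences and all 14 recomputed densities kept a positive mean, from 0.37 to 9.47 points and from 1.00 to 4.64 on the log2 scale. For the densities a positive mean was expected from the definition of a gap. Score differences with 1 replicate left out could not turn negative, since every replicate was positive at the main setting. Taking the best member of each group raises the value by construction. With the peak nearest the region centre the HOMER difference was the main value again, 2.63 points. These settings therefore add little to the count of positive means. A limit of 25 kb moved the size of 3 of the 17 large groups by over 1.5 times. No paired analysis was possible because no list gives values for an input by itself.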
